A study of Homo sapiens with 11 samples.

Results

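The 10 genes described here are the NF-κB subunit genes NFKB1, NFKB2, RELA, RELB and REL, with the NF-κB feedback and regulator genes NFKBIA, NFKBIE, TNFAIP3, BIRC3 and IKBKE. They were chosen by gene symbol, as 10 of 38557 genes in the counts. RNA sequencing was done on MOLM-13, an established cell line of human acute myeloid leukemia that carries a KMT2A rearrangement. Cells were exposed for 72 h to the solvent DMSO (4 libraries), to 1 µM MI-503, an inhibitor of the KMT2A partner protein Menin (4 libraries), or to both 1 µM MI-503 and PR-957 at 100 nM, which inhibits PSMB8 of the immunoproteasome (3 libraries, replicates 1, 2 and 4, called the combination). No library with PR-957 alone was analysed here, so the effect of PR-957 was measured only on top of MI-503. All libraries come from 1 cell line, and the labels do not say that replicates were separate cultures, so p-values measure the spread between these libraries, which may be technical.

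NF-κB factors are dimers of related subunits that bind κB sites in DNA. RELA, RELB and REL carry activation domains. NFKB1 and NFKB2 encode the precursors p105 and p100, which the proteasome trims to the DNA-binding subunits p50 and p52. In resting cells IκB proteins such as those from NFKBIA and NFKBIE hold the dimers in the cytoplasm. The canonical pathway destroys IκB through the IKK complex and frees mainly RELA and p50. The alternative pathway works through the kinase NIK, encoded by MAP3K14, and frees RELB and p52. NFKBIA, TNFAIP3, BIRC3, NFKB2 and RELB are well known NF-κB target genes, which makes the circuit feed back on itself. RNA levels report on the transcripts of these genes, not on the processing or location of their proteins, which were not measured here.

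Libraries held 18.9 to 41.2 M counted fragments. Replicate 1 of the combination was the deepest, and it also stood apart most from its group: 36 genes averaging at least 5 CPM (counts per M counted fragments, on TMM-scaled totals) differed over 2-fold from the mean of the other combination libraries, against 13 for replicate 4, 4 for replicate 2 and 0 or 1 for each DMSO and MI-503 library. The 6 markers taken for the myeloid line (PTPRC, CD33, MPO, SPI1, FLT3 and HOXA9) summed to 808 to 963 CPM per library. Single markers moved within that sum. With MI-503 the means of PTPRC, CD33, MPO and SPI1 were higher than in DMSO, and those of FLT3 and HOXA9 lower. MPO went from 114 to 216 CPM and FLT3 from 324 to 230 CPM. The 3 T-cell markers summed to at most 0.184 CPM, the erythroid and stromal markers to less than 1 CPM, and the 3 B-cell markers to 1.64 to 3.88 CPM, with 1 of the 3 at 0 in every library.

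The κB letters near the annotated starts of these genes are shown to describe which members hold a match to the κB consensus there. The RefSeq promoter table (GRCh38.p14, windows from 250 bases before to 50 after an annotated start) held 8 of the 10 members in 12 windows. The 10-base κB consensus, searched by name on both strands with overlapping matches merged, was found in 7 of the 12 windows and in 6 of the 8 genes (NFKB1, NFKB2, REL, NFKBIA, TNFAIP3 and BIRC3). It was found in 5.91% of 35116 windows and 7.09% of 27305 genes in the table. Capitals mark the κB letters, each with its flanks in 5′ to 3′ order.
NFKB1, chr4:102501300-102501329, plus strand: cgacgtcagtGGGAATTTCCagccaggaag
NFKB2, middle start, first match, chr10:102394461-102394490, plus strand: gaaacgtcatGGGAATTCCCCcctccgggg
NFKB2, middle start, second match, chr10:102394490-102394519, plus strand: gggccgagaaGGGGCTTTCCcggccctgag
NFKB2, most downstream start, first match, chr10:102395519-102395548, plus strand: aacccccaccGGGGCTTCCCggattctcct
NFKB2, most downstream start, second match, chr10:102395674-102395703, plus strand: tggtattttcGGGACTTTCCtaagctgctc
REL, chr2:60881517-60881546, plus strand: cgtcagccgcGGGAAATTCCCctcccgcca
TNFAIP3, first match, chr6:137867182-137867211, plus strand: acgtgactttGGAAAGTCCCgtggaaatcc
TNFAIP3, second match, chr6:137867194-137867223, plus strand: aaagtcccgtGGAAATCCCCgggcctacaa
BIRC3, first match, chr11:102317275-102317304, plus strand: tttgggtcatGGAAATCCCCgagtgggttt
BIRC3, second match, chr11:102317339-102317368, plus strand: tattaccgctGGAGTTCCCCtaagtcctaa
In the annotation used for counting, the matches of NFKB1, NFKB2 and REL lay in exonic sequence, those of TNFAIP3 between exons and those of BIRC3 and NFKBIA outside the gene. For NFKBIA, which encodes IκBα, the 245 bases in front of the first counted exon are given whole, since its promoter is the best known of the NF-κB feedback loop.
NFKBIA, chr14:35404755-35404999, minus strand: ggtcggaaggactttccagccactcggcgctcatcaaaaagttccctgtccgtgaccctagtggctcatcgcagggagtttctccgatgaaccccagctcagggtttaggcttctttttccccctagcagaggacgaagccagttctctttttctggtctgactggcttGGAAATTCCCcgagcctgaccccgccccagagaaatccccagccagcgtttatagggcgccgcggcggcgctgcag
The single match in that stretch lay 81 to 72 bases before the start. RELA had no match in 2 windows and IKBKE none in 1. A match is a description of letters and not a measured binding site. Sites outside these windows or with other letters were not searched, so a gene without a match may still hold one.

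In the hg38 annotation used for counting, from the first to the last exon base, the members on the plus strand were NFKB1 at chr4:102501266-102617302, NFKB2 at chr10:102394110-102402529, RELB at chr19:45001449-45038194, REL at chr2:60881521-60931612, TNFAIP3 at chr6:137866317-137883312, BIRC3 at chr11:102317373-102339403, IKBKE at chr1:206470243-206496890. Those on the minus strand were RELA at chr11:65653596-65662972, NFKBIA at chr14:35401510-35404754, NFKBIE at chr6:44258166-44265551. Counts were taken over all annotated exons of each gene.

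Per length, RELA was the most abundant member in all 3 groups and BIRC3 the least. In DMSO the order by CPM per kb of annotated exon was RELA at 37.9 ± 2.07 (SD, n = 4), NFKB1 at 20.7 ± 0.755, NFKBIA at 15.5 ± 0.74, NFKBIE at 9.68 ± 0.538, IKBKE at 8.94 ± 0.413, TNFAIP3 at 5.16 ± 0.278, NFKB2 at 4.95 ± 0.38, REL at 3.01 ± 0.0811, RELB at 2.79 ± 0.154 and BIRC3 at 0.0312 ± 0.0073. Among neighbors in that order the ranges of NFKBIE and IKBKE overlapped, as did those of TNFAIP3 and NFKB2. NFKB1 then moved down the order. In MI-503 it overlapped with NFKBIA (15.3 ± 0.297 and 16.7 ± 1.08 CPM per kb, n = 4 each), and in the combination it lay below NFKBIA without overlap and overlapped with IKBKE (13.5 ± 0.466, 17.8 ± 1.18 and 12.4 ± 0.746 CPM per kb, n = 3). These levels depend on the annotated exon length, which is long for REL (11393 bases) and TNFAIP3 (8616 bases). Of the exon bases of TNFAIP3, 7.2% are shared with the gene WAKMAR2, and no other member shares exon bases with another gene.

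**Figure D1:**
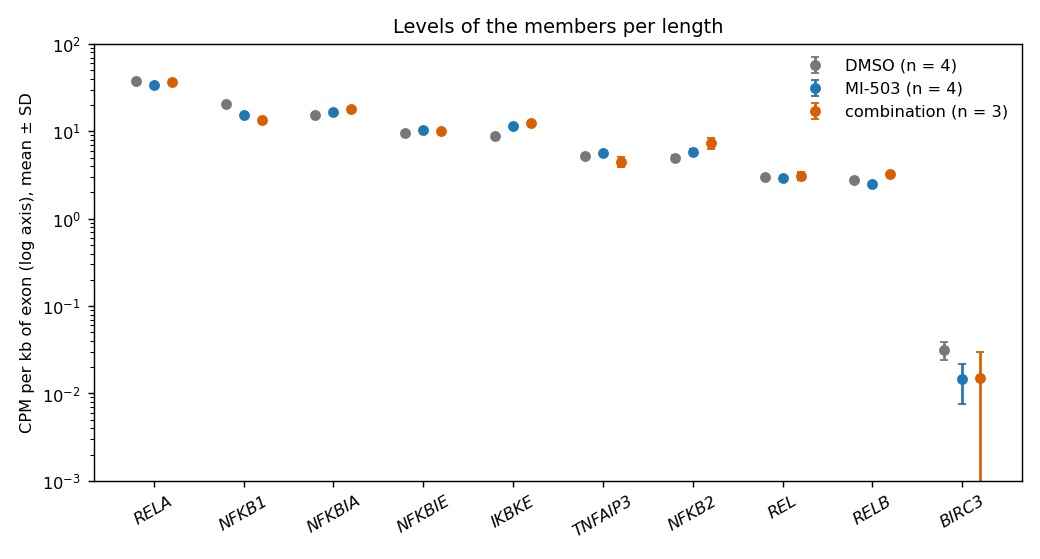
Mean level per length of the 10 members in CPM per kb of annotated exon, on a log axis, with SD bars, for 4 DMSO, 4 MI-503 and 3 combination libraries. RELA lies highest at 34.0 to 37.9 CPM per kb and BIRC3 far below the rest, and the lower SD bar of BIRC3 in the combination leaves the axis because 1 of its libraries is at 0.

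Which members changed with Menin inhibition was asked by MI-503 against DMSO. Of the 9 members tested, 2 were called higher (IKBKE and NFKB2) and 2 lower (NFKB1 and RELA) at an edgeR adjusted p under 0.05, beside 22% of all tested genes called higher and 29.3% called lower. The groups did not overlap for 4 of the 9, beside 50.3% of all genes. The combination against DMSO gave 3 members higher (IKBKE, NFKB2 and NFKBIA) and 2 lower (NFKB1 and TNFAIP3), beside 31.7% and 32.8% of all genes, with 5 of 9 not overlapping beside 60.5%. What PR-957 added to MI-503 was asked by the combination against MI-503, in which 2 members were higher (NFKB2 and RELB) and 2 lower (NFKB1 and TNFAIP3), beside 23.6% and 23.8%, with 6 of 9 not overlapping beside 47.6%. The members as a set were thus called about as often as any genes. Their median log2 fold changes were 0.09, 0.05 and 0.09 in the 3 contrasts, against -0.03, 0.01 and 0.00 over all tested genes. The 3 contrasts share libraries and are given side by side.

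**Figure D2:**
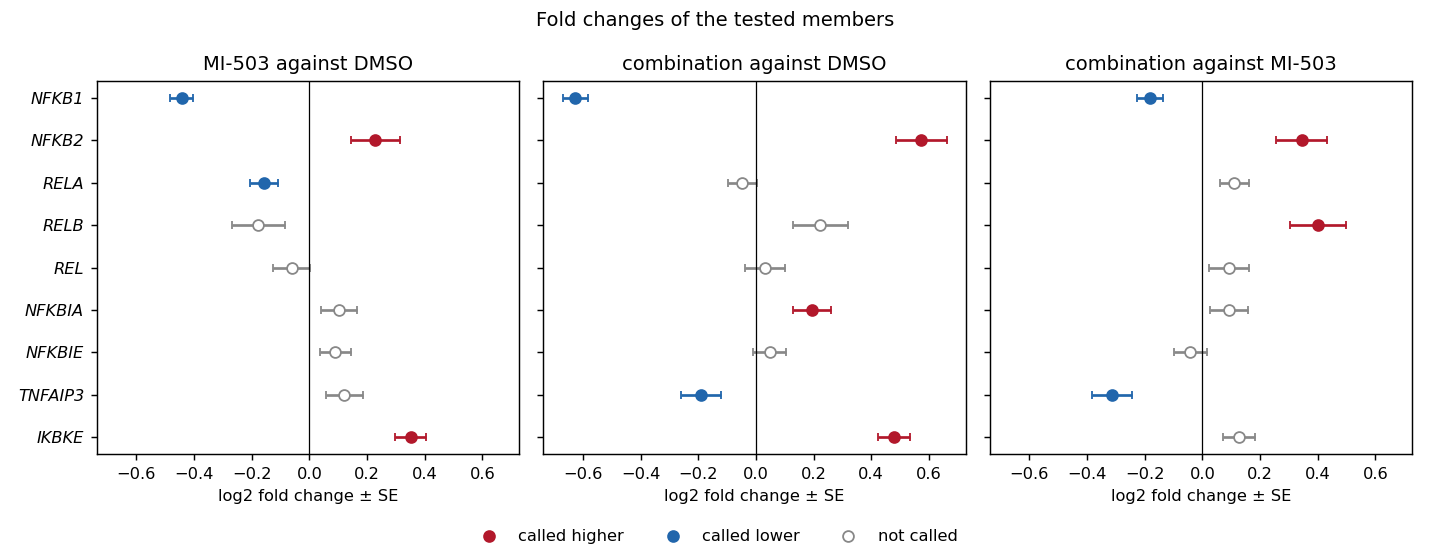
Fitted log2 fold change of each tested member with its SE, in the 3 contrasts, from edgeR on 11 libraries. Filled points were called at an adjusted p under 0.05, open points were not, and NFKB1 lies at -0.44, -0.63 and -0.18 while NFKB2 lies at 0.23, 0.57 and 0.34.

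NFKB1, which encodes p105 and its product p50, fell in both treated groups and was the member with the smallest adjusted p against DMSO. Its CPM was 90.2, 91.6, 90.7 and 97.5 in DMSO, 68.0, 67.9, 66.4 and 69.7 in MI-503, and 57.9, 62.0 and 60.1 in the combination. The 3 groups did not overlap, and every combination library lay under every MI-503 library. NFKB1 fell by 0.44 on the log2 scale with MI-503 (SE 0.041, edgeR adjusted p = 1.55e-07). In the combination it fell by 0.63 against DMSO (SE 0.045, edgeR adjusted p = 2.37e-09) and by 0.18 against MI-503 (SE 0.045, edgeR adjusted p = 0.00288).

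NFKB2, the gene of p100 and p52, moved the other way. Its CPM was 21.4, 24.9, 24.0 and 21.5 in DMSO, 28.9, 27.3, 27.2 and 23.9 in MI-503, and 39.2, 32.6 and 29.9 in the combination. Replicate 4 of MI-503 lay inside the DMSO range, whereas all combination libraries lay above both other groups. The log2 fold change with MI-503 was 0.23 (SE 0.085, edgeR adjusted p = 0.0319), a call that was lost when DMSO replicate 1 or 4, or MI-503 replicate 1, 2 or 3, was left out (adjusted p 0.0624 to 0.103). The combination gave 0.57 against DMSO (SE 0.089, edgeR adjusted p = 2.3e-05) and 0.34 against MI-503 (SE 0.087, edgeR adjusted p = 0.00371). Replicate 1 of the combination was the highest library, and without it the change against MI-503 was 0.19 and stayed called.

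RELA, an activating subunit of the canonical dimer, had small fold changes. Its CPM was 105, 92.5, 98.6 and 95 in DMSO, 83.4, 87.7, 90.5 and 89.0 in MI-503, and 92.1, 92.2 and 99.6 in the combination. MI-503 lay below both other groups without overlap. RELA fell by 0.16 on the log2 scale with MI-503 (SE 0.047, edgeR adjusted p = 0.00983), and the call was lost without DMSO replicate 1 (adjusted p = 0.0501) and with upper-quartile scaling (adjusted p = 0.0751). In the combination the value was -0.05 against DMSO (SE 0.051, edgeR adjusted p = 0.428) and 0.11 against MI-503 (SE 0.051, edgeR adjusted p = 0.0837). The latter was called with upper-quartile scaling (0.12, adjusted p = 0.0464) and with a minimum count of 50 (0.12, adjusted p = 0.0402), and was 0.03 without combination replicate 4, the highest library of its group (adjusted p = 0.638).

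RELB, the partner of p52 in the alternative pathway, was at 6.58, 5.84, 6.55 and 6.45 CPM in DMSO, 5.65, 5.06, 6.03 and 5.85 CPM in MI-503, and 7.44, 7.73 and 7.14 CPM in the combination. The combination lay above every other library. Against MI-503 the log2 fold change was 0.40 (SE 0.096, edgeR adjusted p = 0.0025), the largest of the 9 tested members in that contrast. Against DMSO it was 0.22 (SE 0.096, edgeR adjusted p = 0.0512), just past the threshold, and it was called with RLE or upper-quartile scaling, a minimum count of 50, limma-voom, or without MI-503 replicate 2. MI-503 against DMSO gave -0.18 (SE 0.093, edgeR adjusted p = 0.122).

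REL, the c-Rel subunit of lymphoid and myeloid cells, was called in no contrast. Its lowest and highest CPM were 33.2 and 35.4 in DMSO, 30.9 and 36.0 in MI-503, and 31.6 and 38.8 in the combination, so that all groups overlapped. Fitted log2 fold changes were -0.06 (SE 0.064), 0.03 (SE 0.069) and 0.09 (SE 0.069) for MI-503 against DMSO, the combination against DMSO and the combination against MI-503. The smallest of the 3 edgeR adjusted p-values was 0.289. The sign in both combination contrasts turned without combination replicate 1, the highest library, to -0.04 and -0.03, and that of MI-503 against DMSO turned to 0.00 with upper-quartile scaling (0.0016).

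NFKBIA and NFKBIE, which encode IκBα and IκBε, had log2 fold changes of 0.19 or less in size. NFKBIA was at 25.4, 22.9, 25.1 and 23.9 CPM in DMSO, 24.2, 26.4, 28.3 and 25.7 CPM in MI-503, and 27.6, 26.1 and 29.8 CPM in the combination. The combination lay above DMSO without overlap, by 0.19 on the log2 scale (SE 0.066, edgeR adjusted p = 0.0165), a call lost without combination replicate 4 (adjusted p = 0.0818). The change with MI-503 was 0.10 (SE 0.062, edgeR adjusted p = 0.18), and the combination against MI-503 gave 0.09 (SE 0.066, edgeR adjusted p = 0.27), a value that was 0.0036 without combination replicate 4. NFKBIE ran from 21.2 to 24.0 CPM in DMSO, from 23.8 to 24.6 CPM in MI-503 and from 23.0 to 23.6 CPM in the combination. Its log2 fold changes were 0.09 (SE 0.054), 0.05 (SE 0.058) and -0.04 (SE 0.057) in the same order of contrasts, and none was called.

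TNFAIP3 encodes A20, a ubiquitin-editing enzyme that shuts off the signal to IKK, and was lowest in the combination. Its CPM was 41.2, 46.7, 45.7 and 44.2 in DMSO, 47.4, 49.5, 47.7 and 48.4 in MI-503, and 44.2, 36.0 and 35.7 in the combination. Replicate 1 of the combination lay inside the DMSO range and the other two lay below it. Against MI-503 TNFAIP3 fell by 0.31 on the log2 scale (SE 0.069, edgeR adjusted p = 0.00128). Against DMSO it fell by 0.19 (SE 0.07, edgeR adjusted p = 0.023). Without combination replicate 1 the difference from DMSO was -0.29, and the call was lost without DMSO replicate 2 or 3, without combination replicate 2 or 4, with upper-quartile scaling, with a minimum count of 50 and with only the 2 groups in the fit (adjusted p 0.0536 to 0.156). MI-503 lay above DMSO without overlap, by 0.12 on the log2 scale, which was not called (SE 0.064, edgeR adjusted p = 0.124).

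The values of NFKBIA, NFKBIE and TNFAIP3 under MI-503 depended on which libraries and scaling entered the fit. All 3 were called higher than DMSO with upper-quartile scaling, with only the 2 groups in the fit, or without combination replicate 1, at log2 fold changes of 0.14 to 0.18. Leaving out combination replicate 2 or 4 also gave a call for TNFAIP3 (0.16 in both fits, adjusted p = 0.0437 and 0.0281). In each of the first 3 settings 5 members were called higher in that contrast. The shift was not particular to these genes. In the same settings the median over all tested genes moved from -0.028 to 0.034, 0.011 and 0.017. RELA moved from -0.16 to -0.10, -0.11 and -0.11.

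IKBKE, an IKK-related kinase also called IKKε, rose in both treated groups. Its CPM was 30.1, 32.1, 33.7 and 32.5 in DMSO, 39.5, 39.8, 42.7 and 41.6 in MI-503, and 47.4, 42.1 and 44.0 in the combination. All treated libraries lay above all DMSO libraries, and the treated groups overlapped at 42.1 and 42.7 CPM. The log2 fold change was 0.35 with MI-503 (SE 0.053, edgeR adjusted p = 3.38e-05) and 0.48 with the combination (SE 0.056, edgeR adjusted p = 1e-06). The combination against MI-503 gave 0.13 (SE 0.056, edgeR adjusted p = 0.0676). Without combination replicate 1, the highest library, it was 0.05 (adjusted p = 0.475), and it was called with a minimum count of 50 (0.14, adjusted p = 0.0409) and with a replicate block (0.15, adjusted p = 0.0458).

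BIRC3, which encodes the ubiquitin ligase cIAP2, was close to the detection limit and was not tested. Its counts were 5, 5, 4 and 6 in DMSO, 3, 1, 3 and 3 in MI-503, and 9, 2 and 0 in the combination. Summed per group this gave 20 fragments in DMSO, or 0.207 per M (95% exact Poisson interval 0.127 to 0.32). In MI-503 10 fragments gave 0.0954 per M (0.0457 to 0.175), and in the combination 11 gave 0.128 per M (0.0638 to 0.229). The intervals cover counting error only. Per library, CPM was 0.169 to 0.285 in DMSO and 0.0291 to 0.139 in MI-503, which did not overlap, and 0 to 0.212 in the combination, which overlapped with both.

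**Figure D3:**
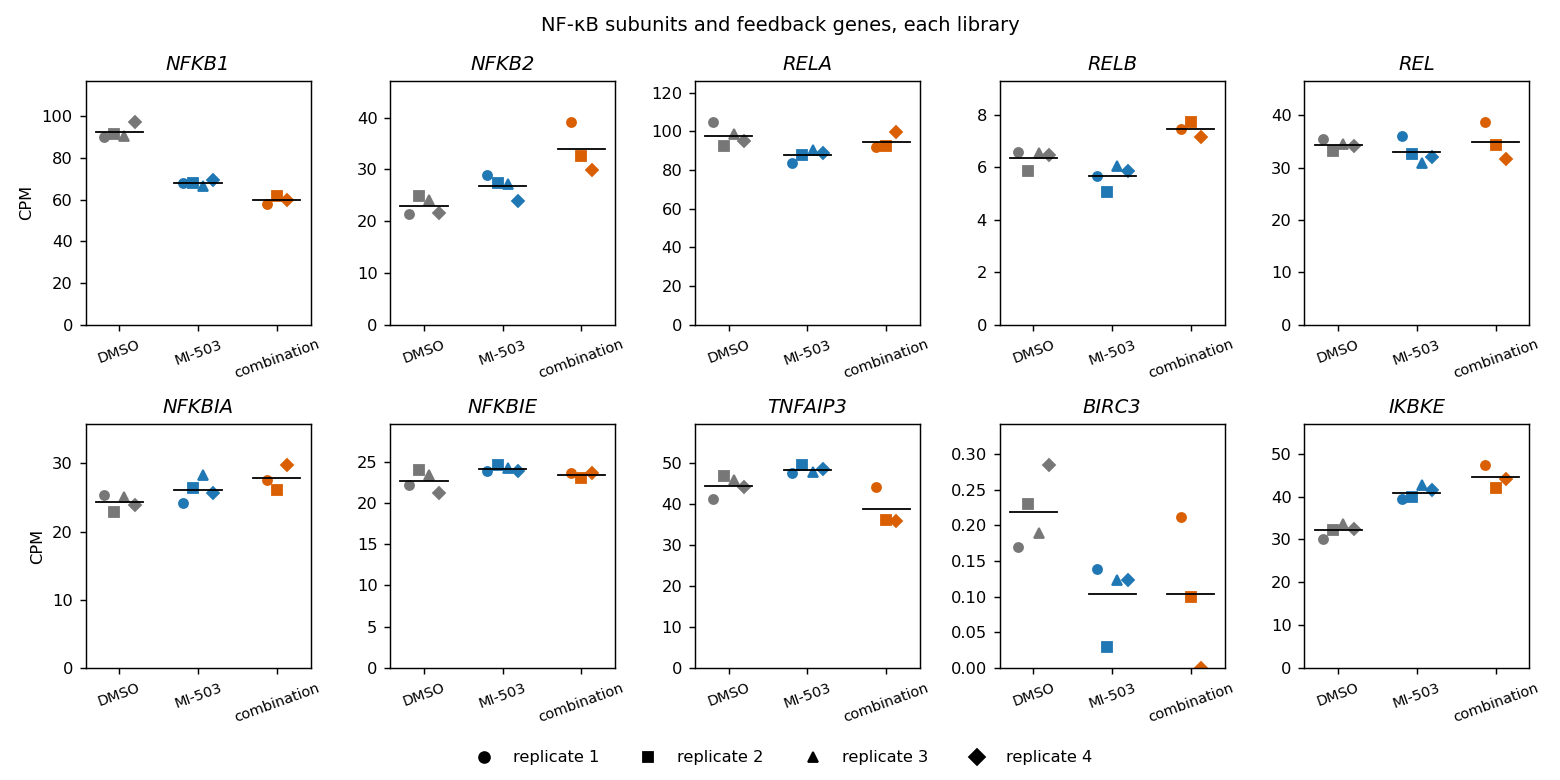
CPM of each member in each of the 11 libraries, with a line at the group mean and 1 symbol per replicate number, each panel on its own axis from 0. NFKB1 steps down from a mean of 92.5 to 68.0 and 60.0 CPM, NFKB2 and IKBKE lie highest in the combination, and BIRC3 stays under 0.3 CPM.

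The balance between subunits shifted with these changes. Of the summed level per length of the 5 subunit genes, NFKB1 made up 29.9% ± 1.45 (SD, n = 4) in DMSO, 25.2% ± 0.643 with MI-503 (n = 4) and 21.1% ± 0.869 with both inhibitors (n = 3), with no overlap between groups. NFKB2 made up 7.14% ± 0.696, 9.58% ± 0.82 and 11.5% ± 1.64. Its ranges in MI-503 (8.5% to 10.5%) and in the combination (10.0% to 13.2%) overlapped. RELA kept a share of 54.6% ± 1.69, 56.3% ± 1.3 and 57.5% ± 2.1, with overlapping ranges. RELB made up 4.02% ± 0.144, 4.11% ± 0.285 and 5.12% ± 0.256, the combination above both other groups. The sum itself was 69.4 ± 1.74, 60.4 ± 0.751 and 63.8 ± 0.686 CPM per kb.

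Within a library, the ratio of NFKB2 to NFKB1 per length does not depend on scaling between libraries. It was 0.228, 0.261, 0.254 and 0.212 in DMSO, 0.409, 0.387, 0.394 and 0.33 in MI-503, and 0.651, 0.505 and 0.478 in the combination. The 3 groups did not overlap. The ratio of IKBKE to NFKB1 likewise went from 0.414 to 0.461 in DMSO to 0.722 to 0.798 in MI-503 and 0.844 to 1.018 in the combination. RELB over RELA was alike in DMSO (0.071 to 0.077) and MI-503 (0.065 to 0.077) and higher in the combination (0.081 to 0.095). TNFAIP3 over NFKBIA overlapped between DMSO (0.295 to 0.371) and MI-503 (0.307 to 0.356) and was lower in the combination (0.218 to 0.291). NFKBIA over RELA was 0.398 to 0.419 in DMSO, 0.475 to 0.514 in MI-503 and 0.465 to 0.494 in the combination. NFKBIE over NFKBIA overlapped between all groups (0.583 to 0.702, 0.571 to 0.661 and 0.531 to 0.59). These ratios were given as descriptions, with no test. They restate the changes of the same genes in the same libraries and are no further support for them.

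**Figure D4:**
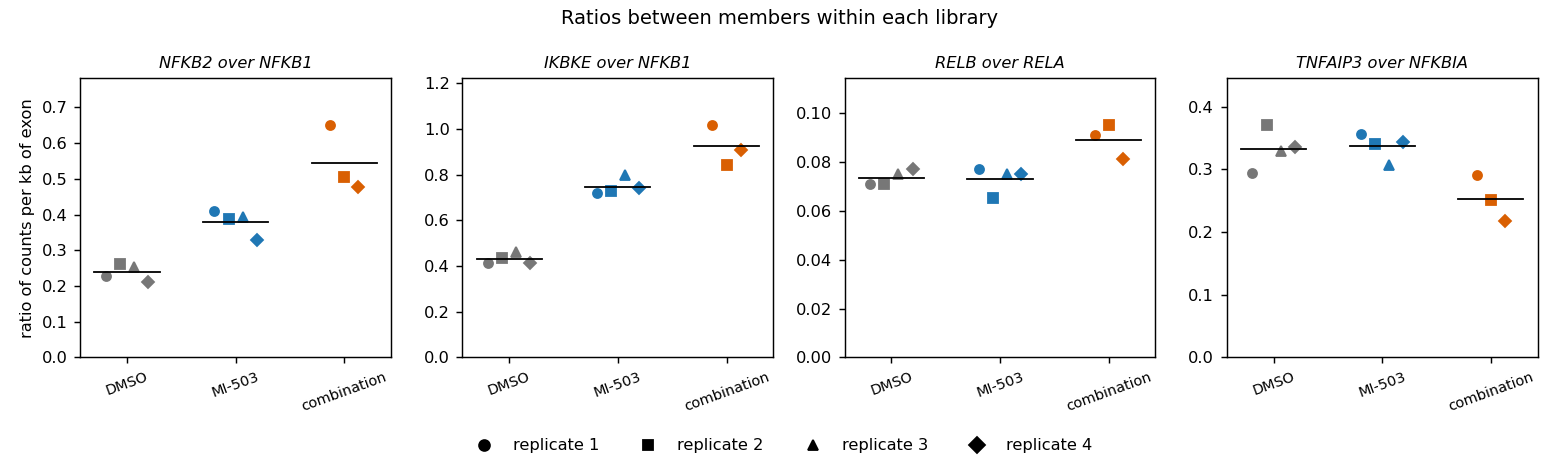
Ratios of counts per kb of exon between members within each of the 11 libraries, with a line at the group mean and 1 symbol per replicate number. The mean of NFKB2 over NFKB1 goes from 0.239 in DMSO to 0.38 in MI-503 and 0.545 in the combination, and TNFAIP3 over NFKBIA is lowest in the combination at 0.253.

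Members that share κB letters moved in different directions. Of the 5 tested genes with a match, NFKB1 and TNFAIP3 were lower and NFKB2 and NFKBIA higher in the combination than in DMSO, while REL was not called. The calls of TNFAIP3 and NFKBIA were lost in some settings, as given above, while those of NFKB1 and NFKB2 held. Of the 2 without a match, IKBKE was higher and RELA was not called. RELB and NFKBIE had no promoter window and were left out.

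Around the members, 103 other genes of the pathway were listed by role, of which 80 were tested. The lists were drawn up with earlier results of these data known. The shares therefore describe these lists and are no independent support for a shift of the pathway. MI-503 against DMSO gave 20 of the 80 higher and 17 lower, or 25% and 21.2%, beside 22% and 29.3% of all tested genes. The combination against DMSO gave 40 higher and 12 lower, or 50% and 15% beside 31.7% and 32.8%, with a median log2 fold change of 0.16 beside 0.01 over all tested genes. The combination against MI-503 gave 32 higher and 9 lower, or 40% and 11.2% beside 23.6% and 23.8%, with a median of 0.12 beside 0.00. These shares of all genes are also the background for the counts by role.

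**Figure D5:**
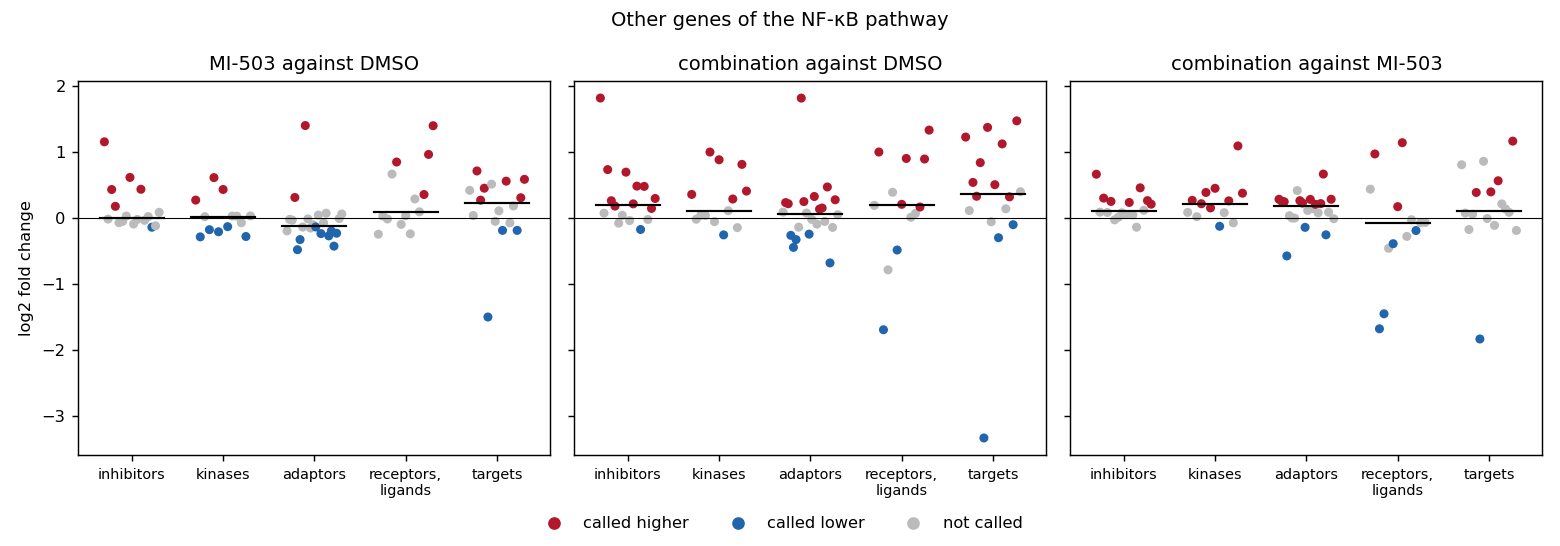
Log2 fold change of each of the 80 tested pathway genes in the 3 contrasts, by role, with a line at each list's median. Colored points were called at an edgeR adjusted p under 0.05, and called genes above 0 outnumber those below it in both combination contrasts (40 to 12 and 32 to 9).

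Among further IκB proteins and feedback inhibitors, 5 of 16 tested were higher and 1 lower with MI-503. The combination gave 10 and 1 against DMSO, and 7 and 0 against MI-503. For the latter contrast edgeR gave 0 lower also at an unadjusted p under 0.05, as did DESeq2 and limma-voom after adjustment. As shares of the 16 these were 31.2% and 6.25%, 62.5% and 6.25%, and 43.8% and 0%. BCL3, a nuclear IκB protein that binds p50 and p52 homodimers, rose most of the named genes of this list, from 4.87 ± 0.27 CPM in DMSO (n = 4) to 10.8 ± 0.503 with MI-503 (n = 4) and to 17.0 ± 1.68 with both inhibitors (n = 3). Its log2 fold changes were 1.15 (SE 0.089), 1.82 (SE 0.09) and 0.66 (SE 0.082), all called. CYLD, a deubiquitinase that restrains IKK signaling, was at 24.9 ± 0.308, 33.5 ± 2.35 and 41.3 ± 1.75 CPM and was called higher in all 3 contrasts. PDLIM2, a ubiquitin ligase for RELA, rose from 81.2 ± 0.524 to 110 ± 1.89 CPM with MI-503 and stood at 113 ± 6.13 CPM in the combination. TAX1BP1, an A20 partner, was at 122 ± 3.04 CPM in MI-503 and 167 ± 13 CPM in the combination, 0.46 higher on the log2 scale (SE 0.051, edgeR adjusted p = 1.75e-06).

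Among the 13 kinases and their partners, 3 were higher and 5 lower with MI-503, 6 and 1 in the combination against DMSO, and 8 and 1 against MI-503. As shares of the 13 these were 23.1% and 38.5%, 46.2% and 7.69%, and 61.5% and 7.69%. TBK1, the close relative of IKBKE, went down with MI-503 and up in the combination. It was at 38.0 ± 2.24 CPM in DMSO, 31.3 ± 0.778 in MI-503 and 66.6 ± 3.98 in the combination, with log2 fold changes of -0.28 (SE 0.054) for MI-503, 0.81 (SE 0.056) for the combination against DMSO and 1.09 (SE 0.056) against MI-503. IKBKE, in contrast, was higher than DMSO in both treated groups. MAP3K14, the kinase NIK, was at 5.38 ± 0.86, 8.22 ± 0.665 and 10.8 ± 0.331 CPM, and its log2 fold change against DMSO was 0.61 (SE 0.11) with MI-503 and 1.00 (SE 0.11) in the combination. MAP3K8, which acts with p105, was at 6.67 ± 0.564, 8.98 ± 0.215 and 12.3 ± 0.115 CPM and was called higher in all 3 contrasts. TBKBP1, an adaptor of TBK1, was at 58.9 ± 3.88 CPM in the combination and 45.4 ± 0.426 CPM in MI-503.

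Among adaptors and ubiquitin ligase parts, 2 of 22 tested were higher and 8 lower with MI-503, 9 and 5 in the combination against DMSO, and 10 and 3 against MI-503. As shares of the 22 these were 9.09% and 36.4%, 40.9% and 22.7%, and 45.5% and 13.6%. TRAF2, a ligase adaptor of TNF receptors, fell from 42.7 ± 2.41 CPM in DMSO to 31.8 ± 1.76 in MI-503 and 26.7 ± 0.559 in the combination. CUL1 and FBXW11, parts of the ligase that marks IκB for destruction, fell with MI-503 by 0.48 (SE 0.055) and 0.33 (SE 0.053) on the log2 scale. TRADD, an adaptor of the TNF receptor, was higher in the combination (32.2 ± 2.73 CPM) than in MI-503 (20.3 ± 0.465 CPM) and DMSO (23.2 ± 0.432 CPM). IRAK4, a kinase of the interleukin-1 and Toll-like receptor route, was 0.26 (SE 0.053) higher in the combination than in MI-503 on the log2 scale, while CARD9 fell by 0.57 (SE 0.059).

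Among receptors and ligands, 4 of 13 tested were higher and 0 lower with MI-503 (edgeR gave 0 lower also at an unadjusted p under 0.05, as did DESeq2 and limma-voom after adjustment), 6 and 2 in the combination against DMSO, and 3 and 4 against MI-503. The shares were 30.8% and 0%, 46.2% and 15.4%, and 23.1% and 30.8%. TNFSF14, the ligand LIGHT of the lymphotoxin-β receptor, rose from 7.8 ± 0.437 CPM in DMSO to 20.5 ± 2.09 in MI-503 and stood at 19.6 ± 0.365 in the combination. TNFSF13B, the cytokine BAFF, went from 42.1 ± 4.51 to 81.9 ± 2.49 CPM with MI-503 and was at 77.8 ± 8.35 CPM in the combination. TNFRSF1B, a TNF receptor, rose by a log2 fold change of 0.36 (SE 0.045) with MI-503. IL18 was at 11.7 ± 0.401 CPM in DMSO, 12 ± 0.588 in MI-503 and 23.4 ± 0.766 in the combination. Its receptor chain IL18R1 was at 5.25 ± 0.772, 5.2 ± 0.651 and 1.57 ± 0.312 CPM, and IL1RAP at 49.2 ± 2.43, 46.0 ± 2.68 and 35.3 ± 3.5 CPM. In the combination against MI-503 the log2 fold changes were 0.97 (SE 0.066) for IL18 and -1.68 (SE 0.17) for IL18R1.

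Among the listed target genes, 6 of 16 tested were higher and 3 lower with MI-503, 9 and 3 in the combination against DMSO, and 4 and 1 against MI-503. The shares were 37.5% and 18.8%, 56.2% and 18.8%, and 25% and 6.25%. TNFAIP2 was at 60.3 ± 2.28 CPM in DMSO, 74.6 ± 1.36 in MI-503 and 167 ± 15.7 in the combination, a log2 fold change of 1.47 (SE 0.055) against DMSO. CFLAR, an inhibitor of caspase-8, was at 73.3 ± 1.92, 100 ± 2.04 and 131 ± 22.1 CPM. PLAU, the urokinase gene, was at 41 ± 0.678, 60.3 ± 0.733 and 89.7 ± 21.5 CPM, with 30.3% of its exon bases shared with C10orf55. CD44, an adhesion receptor, rose from 103 ± 2.62 to 169 ± 7.71 CPM with MI-503 and ranged from 127 to 190 CPM in the combination. The combination against MI-503 gave -0.17 (SE 0.097, edgeR adjusted p = 0.152). CD44 was called lower there without combination replicate 1 (-0.41, edgeR adjusted p = 1.53e-07) and with no low-count filter (-0.17, edgeR adjusted p = 0.009). ICAM1, another adhesion molecule, was at 36.6 ± 0.913 CPM in MI-503 and 48.2 ± 2.19 in the combination, a log2 fold change of 0.40 (SE 0.052). The 3 targets called lower than DMSO were CXCL10, IRF1 and SOD2. Their log2 fold changes were -1.50 (SE 0.40), -0.19 (SE 0.057) and -0.19 (SE 0.040) with MI-503. In the combination they were -3.33 (SE 0.56), -0.30 (SE 0.062) and -0.10 (SE 0.043), so that CXCL10 was by far the least precise. CXCL10 was also the 1 called lower against MI-503 (-1.83, SE 0.68), although its groups overlapped in that contrast. Without combination replicate 1 that call was lost (edgeR adjusted p = 0.0809), as was SOD2 in the combination against DMSO (0.328).

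The other 23 pathway genes did not pass the filter on low counts. They include 13 of the 29 listed targets, such as IL6 (0 or 1 count per library), VCAM1 (0 or 1) and CXCL8 (0 to 33). TNF, LTB, NFKBIB, CCL3, CCL4 and IER3 were at 0 counts in every library. The annotation places each of these 6 on several contigs of hg38, so their counts may be incomplete and their 0 is not read as absence. CXCL1 and CXCL3 were also at 0 in every library and lie on 1 contig each. RNF31 (0 or 1 count per library), LTA (0 to 2) and CCL5 (0 or 1) lie on several contigs too, so their counts may likewise be incomplete.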

How the data were processed

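RNA sequencing of 11 libraries was analysed. The deposited counts give whole fragments for each gene, without normalization. Per the labels and file headers, the authors trimmed read pairs (TruSeq, NovaSeq) with Trimmomatic 0.39, aligned them to hg38 with STAR 2.7.10a, filtered the alignments by a rule not given in the sources used here, and counted exons of the RefSeq annotation with featureCounts 2.0.1 without regard to strand. The joined count table differed from the single tables in 0 cells. The deposited DESeq2 tables hold the authors' fold changes and p-values and were not used.

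Grouping followed the labels. Counts were fitted with edgeR 4.0.16 in R 4.3.3: 14683 genes passed filterByExpr (minimum count 10), scaling was by TMM, and all libraries entered 1 quasi-likelihood model with a mean per group. Tests were two-sided, p-values were adjusted by Benjamini-Hochberg over the 14683 genes, and calls were made at an adjusted p under 0.05. CPM are relative to TMM-scaled totals, and levels between genes are CPM per kb of annotated exon. SE is the fitted log2 fold change divided by the root of the test statistic. Totals of 18.9 to 41.2 M fragments leave genes under about 10 fragments per library untested. The fit was run on simulated data with 200 genes changed, far fewer than were called here. That run therefore does not bear on the effect of scaling. Alternatives were other scalings and filters, DESeq2 1.42.0, limma-voom (limma 3.58.1), a replicate block, the 2 groups alone and leaving out each library. Members, gene lists and alternatives were chosen with earlier results of these data known. Besides the members, the text names, per contrast and list, the 3 called genes with the smallest adjusted p. It also names the markers of the myeloid line, and the listed targets that were called lower. Genes outside the filter (such as IL6 and TNF) were named after their values were seen. Promoter sequences are from RefSeq (GRCh38.p14), and those of RELB and NFKBIE were not analysed here.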

Additional observations from a re-analysis of the deposited data

Results flagged for a closer look

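In BIRC3, MI-503 replicate 2 was below the other 3 MI-503 libraries, at 0.0291 CPM (1 fragment) against 0.123 to 0.139 CPM (3 fragments each). It was the only one of 20 groups of 4 libraries, 1 per member and group, in which a sample stood apart. For continuous values chance flags about 1 in 20 such groups. That rate does not apply to these few, tied counts, and the flag rests on 1 fragment against 3. That library was the deepest of its group, with 34.6 M fragments.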

How the results depend on the processing

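Of 513 refits of member fold changes, 474 kept direction and call, 20 gained a call, 15 lost it and 4 turned sign. Of 1425 refits of the pathway genes named by smallest adjusted p, 1374 kept both, 10 gained a call, 3 lost it and 38 turned sign. All 42 turns were at values that were not called. The calls of NFKB1 and IKBKE against DMSO, of NFKB2 in both combination contrasts, and of NFKB1, RELB and TNFAIP3 against MI-503 held in every setting tried. Members called higher with MI-503 numbered 5 with upper-quartile scaling or with the 2 groups alone, 1 at an adjusted p under 0.01, and 1 to 5 over the leave-one-out fits, and members called lower 1 with upper-quartile scaling and 1 to 2 over the leave-one-out fits. Upper-quartile scaling also gave 25 pathway genes higher and 11 lower, and 3968 genes of all higher and 3356 lower where TMM gave 3235 and 4307. Members lower in the combination than in DMSO numbered 1 with upper-quartile scaling, a minimum count of 50, the 2 groups alone or an adjusted p under 0.01, and 1 to 2 over the leave-one-out fits. In the combination against MI-503 a minimum count of 50 gave 4 members higher, and an adjusted p under 0.01 gave 5 pathway genes lower. The cause of these changes was not tested.

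Signs turned as follows. With upper-quartile scaling, MI-503 against DMSO gave 0.0016 for REL, 0.0486 for IRAK4 and 0.0476 for IL18R1, and the combination against DMSO 0.0212 for RELA. For IRAK4 and IL18R1 with MI-503, RLE factors gave 0.0135 and 0.0127, no filter 0.0059 and 0.0048, a minimum count of 50 0.0123 and 0.0114, DESeq2 0.0134 and 0.0127, and the 2 groups alone 0.0341 and 0.0332. For FBXW11 in the combination against MI-503, RLE factors gave -0.0168, DESeq2 -0.016, the replicate block -0.0009 and the 2 groups alone -0.0005. Leave-one-out values with MI-503 ran from -0.0029 to 0.074 for IL18, from -0.0304 to 0.031 for IRAK4 and from -0.0944 to 0.0679 for IL18R1. For the combination against MI-503 they ran from -0.0175 to 0.0558 for PDLIM2, from -0.0178 to 0.0693 for CUL1, from -0.0734 to 0.0244 for FBXW11 and from -0.0254 to 0.1349 for REL, and against DMSO from -0.0427 to 0.0984 for REL.

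Same-numbered replicates deviated together with correlations of -0.10 to 0.14 and the labels name no shared batch, so the numbers were not taken to pair the libraries. With the replicate block the members called higher and lower were 2 and 2, 3 and 2, and 3 and 2 in the 3 contrasts, and the gained call was IKBKE against MI-503 (0.15, adjusted p = 0.0458). Among the members, BIRC3 alone had too few fragments (0 to 9 per library) to be tested.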
